A study of Mus musculus with 15 samples.

Results

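The PGC-1 coactivators and the regulators that work with them were followed as a set of 10 genes, listed by name, out of 56980 genes in the expression table. They comprise the coactivators Ppargc1a, Ppargc1b and Pprc1, the muscle regulator Perm1, the estrogen-related receptors Esrra, Esrrb and Esrrg, the fatty acid receptor Ppara, and the mitochondrial biogenesis factors Nrf1 and Tfam. All 10 passed the filter on low values in both tissues. RNA was sequenced from the tibialis anterior (TA), a limb muscle, and from the heart of DBA/2J-mdx mice, a dystrophin-deficient strain that models Duchenne muscular dystrophy and that every group shared, so there was no wild-type group. The mice received dasatinib with quercetin (D + Q), a drug pair given to remove senescent cells, or vehicle 2 times per week. For TA, treatment ran for 2 months from 3 months of age, and muscles were collected at 5 months from 4 D + Q mice, all male, and 4 vehicle mice, males 1 and 3 and females 2 and 4. For heart, treatment ran for 4 months from 12 months of age, and hearts were collected at 16 months from 3 D + Q mice, labelled female for 1 and 2 and male for 3, and 4 vehicle mice, males 1 and 4 and females 2 and 3. Tissue, age and length of treatment therefore cannot be told apart between TA and heart.

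PGC-1 coactivators do not bind DNA themselves. They dock on transcription factors, among them the ERR receptors, PPARα and NRF1, and raise the transcription of genes for fatty acid oxidation, the citric acid cycle and the respiratory chain, while TFAM, whose gene is a target of NRF1, packages and transcribes the mitochondrial genome. PERM1 is induced by PGC-1 and ERR proteins in striated muscle and takes part in the same oxidative program. Heart and oxidative skeletal fibres, which rely on mitochondrial ATP, are known for high activity of this network, and Ppargc1a is known to respond to exercise, fasting and cAMP signalling.

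Ppargc1a and Perm1, whose levels stood apart most clearly between the treated and untreated hearts, are shown with the 250 bases upstream of the start of their canonical transcript (GENCODE M39, GRCm39), written 5′ to 3′ on the strand of the gene. The capitals mark a cAMP response element, TGACGTCA, in Ppargc1a (minus strand, chr5:51711265-51711514) and the core of the ERR element, AAGGTCA, read on the opposite strand, in Perm1 (plus strand, chr4:156300075-156300324).
Ppargc1a: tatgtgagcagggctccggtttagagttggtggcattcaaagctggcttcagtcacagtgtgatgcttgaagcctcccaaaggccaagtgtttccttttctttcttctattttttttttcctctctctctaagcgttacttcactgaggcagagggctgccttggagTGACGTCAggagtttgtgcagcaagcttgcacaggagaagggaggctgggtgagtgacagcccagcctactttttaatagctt
Perm1: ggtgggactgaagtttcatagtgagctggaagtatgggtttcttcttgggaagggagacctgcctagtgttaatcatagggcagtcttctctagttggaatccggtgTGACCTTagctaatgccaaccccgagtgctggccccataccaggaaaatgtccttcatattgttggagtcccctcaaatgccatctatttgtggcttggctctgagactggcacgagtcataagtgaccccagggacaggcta
The Ppargc1a element lay 83 to 76 bases before the start, and 1.7% of 21757 promoters of the same length held that motif on either strand. The Perm1 match lay 143 to 137 bases before the start, and 3.93% of promoters held its core, whereas the extended element TCAAGGTCA was found in 0.432% of promoters and in none of these genes. Among the members, Esrra alone matched the NRF1 core GCATGCGC, 25 to 18 bases before its start, a motif of 2.68% of promoters. No match to the longer palindromic NRF1 site (0.666% of promoters), which contains that core, to the E-box CACGTG (6.26%), the MEF2 motif (3.31%) or the D-box TTATGTAA (0.832%) was found in the members searched, and the promoter of Ppargc1b was not searched. A match describes letters in a window and not a bound site. Only the window at the canonical start was searched. For Ppargc1a, Pprc1, Esrra, Esrrb, Esrrg and Ppara that start lies inside the annotated gene, and other starts were not searched.

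The values are TPM, a transcript abundance scaled for transcript length and to the same total in every library, so levels can be compared between genes but the depth behind them is unknown. Treated and untreated libraries were compared with limma on log2(TPM + 0.5), and a gene was called when its Benjamini-Hochberg adjusted p-value was below 0.05 and its log2 fold change was beyond 0.5 in either direction. These fold changes understate the change of genes with low TPM. In bulk RNA, fewer cells of a type and less RNA per cell cannot be told apart. The tissue labels held, since 6 fast-fibre markers summed to 26700 to 32430 TPM in TA and to 1.39 to 64.3 TPM in heart, the highest of these being D + Q heart 2 and the others at most 4.08 TPM, while 5 cardiac muscle markers summed to at least 12130 TPM in every heart and at most 29.8 TPM in TA. The D + Q heart 3 was labelled male but expressed sex-linked genes as a female. By expression, all D + Q hearts were therefore female, whereas vehicle hearts 2 and 3 were female and 1 and 4 male. Sex by expression and treatment are thus partly mixed in heart. The heart model uses labelled sex, and the heart estimates below are from that model unless stated otherwise. In TA, D + Q mice 1 and 4 and vehicle mouse 3 had the highest values of the surrogate variable that the TA model holds (0.703, 0.228 and 0.295). The number of genes detected above 0 was 22579 to 22818 in hearts given D + Q and 24089 to 25378 in vehicle hearts. In TA it was 22166 and 21830 in D + Q muscles 2 and 3 and 23691 to 24393 in the other muscles. The part of these differences in the results was not tested.

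Perm1 had the highest mean level of the 10 genes in each of the 4 groups, and in none did its libraries overlap with those of the next gene. In vehicle TA, Perm1 averaged 61.9 TPM ± 14.3 (SD, n = 4), followed by Ppargc1a, Tfam and Esrra at 24.8 to 26.3 TPM, which overlapped with each other in the order of their means. Ppargc1b, Pprc1 and Nrf1 followed at 7.77 to 12.6 TPM, and Esrrg, Ppara and Esrrb were lowest, with Esrrb at 1.497 TPM ± 0.243 (SD, n = 4). In vehicle heart, Perm1 averaged 62.6 TPM ± 6.32 (SD, n = 4) and the lowest mean belonged to Nrf1, at 5.72 TPM ± 1.61 (SD, n = 4), with Pprc1 and Esrrb next above it and neighbours overlapping. Esrrg and Ppara, near the bottom of the order in TA, ranked above Pprc1, Esrrb and Nrf1 in heart, with no overlap between Ppara and Pprc1.

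**Figure D1:**
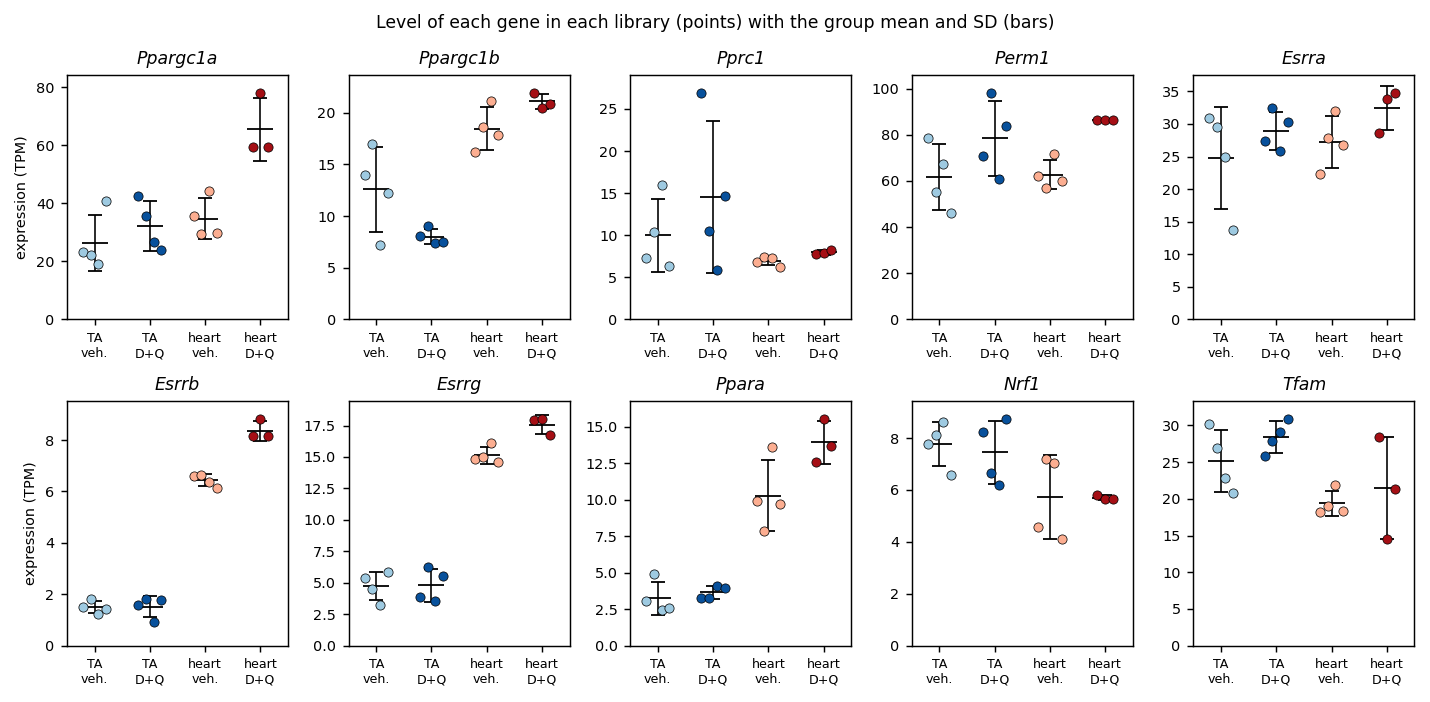
Expression in TPM (vertical axis, from 0) of each of the 10 genes in every library, with 1 point per library and bars for the group mean and SD. The 3 D + Q hearts lie above the 4 vehicle hearts for Ppargc1a, Pprc1, Perm1, Esrrb and Esrrg, and all TA groups overlap.

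Treatment was compared first in the heart. None of the 10 genes was called there, against 0.316% of the 16132 genes tested. The D + Q hearts lay above the vehicle hearts without overlap for 5 members, Ppargc1a, Pprc1, Perm1, Esrrb and Esrrg, where 9.63% of all genes did so. The members and all gene lists below were chosen with earlier results of these data known. Such counts therefore describe these genes and are not an independent test of them. At an unadjusted p-value under 0.05, also 5 members were higher, Ppargc1a, Perm1, Esrrb, Esrrg and Ppara, against 9.65% of all genes. The log2 fold change was positive for 9 of the 10 genes, with a median of 0.21, and the median over all genes tested was -0.0025.

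Ppargc1a (chr5:51611592-51725068), which encodes PGC-1α, had the largest difference of the 10 genes. It measured 35.6, 29.4, 44.3 and 29.7 TPM in vehicle hearts 1 to 4 and 59.4, 78.2 and 59.3 TPM in D + Q hearts 1 to 3. Every D + Q heart was above every vehicle heart, and D + Q heart 2 was the highest. The log2 fold change was 0.89 (SE 0.16, 95% confidence interval 0.51 to 1.26), a 1.85-fold difference, with an adjusted p of 0.0908 in limma. It ranked 136 of 16132 genes by p-value.

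Perm1 (chr4:156300325-156314305) stood next. Its level was 61.9, 57.0, 71.6 and 60.0 TPM in vehicle hearts 1 to 4 and 86.2, 86.4 and 86.6 TPM in D + Q hearts 1 to 3. The D + Q hearts were nearly equal to each other and all above the vehicle hearts, of which the third was the highest. The log2 fold change was 0.46 (SE 0.08), 1.38-fold on this scale, with an adjusted p of 0.0904 in limma. Vehicle heart 3 had the highest level of its group for Ppargc1a, Ppargc1b, Perm1, Esrra, Esrrg, Ppara and Tfam. When it was left out, Ppargc1a (log2 fold change 1.03, adjusted p 0.0471) and Perm1 (0.55, adjusted p 0.0317) passed both thresholds. In that fit 64 of all 15870 genes were called higher and 72 lower. Without this heart, 8 of the 10 genes had groups that did not overlap. Leaving out D + Q heart 3, whose label and expressed sex differ, left 5 genes without overlap. It left 3 genes higher at an unadjusted p-value under 0.05, against 933 of all 15963 genes. With sex as expressed in the model, 3 were also higher at that threshold, against 804 of all 16132 genes. The share of all genes without overlap is not given here for hearts left out, and leaving out a heart makes overlap less likely for any gene.

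The other coactivators differed less. Ppargc1b (chr18:61431195-61533735), which encodes PGC-1β, measured 16.2, 18.6, 21.2 and 17.8 TPM in the vehicle hearts and 22.0, 20.5 and 20.9 TPM in the D + Q hearts. Vehicle heart 3 lay among the D + Q hearts, and the log2 fold change was 0.17 (SE 0.08, adjusted p 0.34). Pprc1 (chr19:46033325-46061354), which encodes the PGC-1-related coactivator known from proliferating cells, measured 6.86, 7.39, 7.30 and 6.25 TPM against 7.71, 7.88 and 8.27 TPM. Its groups did not overlap, but the gap between the highest vehicle and lowest D + Q heart was small beside the spread within groups, with a log2 fold change of 0.17 (SE 0.09, adjusted p 0.352).

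Of the ERR receptors, which bind DNA as orphan nuclear receptors and recruit PGC-1, Esrrb and Esrrg separated the groups and Esrra did not. Esrrb (chr12:86407887-86568409), best known from stem cells, measured 6.60, 6.66, 6.37 and 6.14 TPM in vehicle hearts and 8.14, 8.82 and 8.15 TPM in D + Q hearts. Its groups stood apart, with a log2 fold change of 0.35 (SE 0.08, adjusted p 0.112). Esrrg (chr1:187340988-187947082), an ERR of oxidative tissues, measured 14.8, 14.99, 16.1 and 14.6 TPM against 18.0, 18.0 and 16.7 TPM. The groups were close but did not overlap, with a log2 fold change of 0.19 (SE 0.06, adjusted p 0.179). Esrra (chr19:6888338-6899336), which encodes ERRα, measured 22.3, 27.9, 32.0 and 26.8 TPM against 28.6, 33.9 and 34.8 TPM, and D + Q heart 1 fell below vehicle heart 3 (log2 fold change 0.24, SE 0.13, adjusted p 0.382). Exons of Esrra overlap those of Trmt112 on the opposite strand by 1479 bases. Since the strand setting of the quantification is not given in the sources used here, reads of the 2 genes may not be fully separated. The same holds for shorter overlaps on the opposite strand, of Perm1 with Klhl17 (146 bases) and Plekhn1 (193 bases) and of Pprc1 with Ldb1 (177 bases). Exons of Ppargc1b, Esrrb and Nrf1 overlap those of non-coding genes on the opposite strand.

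Ppara (chr15:85618656-85687067), which encodes PPARα, the receptor that fatty acids activate, measured 9.89, 7.86, 13.6 and 9.70 TPM in vehicle hearts and 12.6, 15.5 and 13.7 TPM in D + Q hearts. Vehicle heart 3 lay among the D + Q hearts and the others below them, with a log2 fold change of 0.43 (SE 0.18, adjusted p 0.269). Exons of Cdpf1 overlap those of Ppara by 1803 bases on the opposite strand. Nrf1 (chr6:30047892-30153462), the nuclear respiratory factor that acts on genes of the respiratory chain, measured 4.56, 7.18, 7.05 and 4.11 TPM in the vehicle hearts and 5.81, 5.65 and 5.64 TPM in the D + Q hearts. The vehicle hearts fell into a low pair, males 1 and 4, and a high pair, females 2 and 3, with all D + Q hearts in the gap between, and the log2 fold change was -0.03 (SE 0.14, adjusted p 0.927). The high pair also had the highest sums of 5 atrial muscle markers, 4260 and 2221 TPM against 864 and 1104 TPM in the low pair, so sex and atrial marker level cannot be told apart for Nrf1 in these 4 hearts. Tfam (chr10:71061287-71074110), the packaging and transcription factor of mitochondrial DNA, measured 18.2, 19.1, 21.9 and 18.3 TPM against 28.4, 14.6 and 21.3 TPM. The D + Q hearts held both the highest and the lowest value of the 7, D + Q heart 2, with the lowest, being the one with the most Ppargc1a (log2 fold change 0.09, SE 0.21, adjusted p 0.868).

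**Figure D2:**
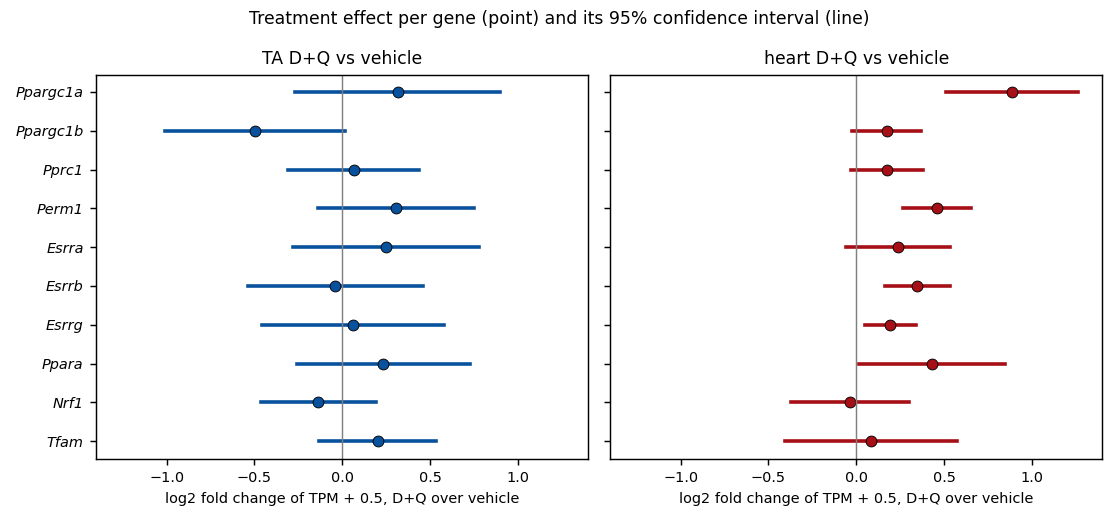
Log2 fold change of TPM + 0.5, D + Q over vehicle (horizontal axis), of each of the 10 genes in TA (left) and heart (right), with points for the estimate and lines for its 95% confidence interval. In heart the interval lies above 0 for Ppargc1a, Perm1, Esrrb, Esrrg and Ppara, and in TA every interval includes 0.

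Genes that the network is known to act on also had higher levels in the D + Q hearts, though none was called. Of 25 target genes, most of them of fatty acid use, the citric acid cycle, the respiratory chain and glucose uptake, with others such as Vegfa, Sod2 and Mfn2, 24 had a positive log2 fold change, 20 were higher at an unadjusted p-value under 0.05 (9.65% of all genes), and for 19 every D + Q heart was above every vehicle heart (9.63% of all genes). The median log2 fold change was 0.24. The smallest p-values belonged to Cs, citrate synthase, Slc2a4, the insulin-responsive glucose transporter GLUT4, and Idh3a, a subunit of isocitrate dehydrogenase. Cs ranged from 249 to 267 TPM in vehicle and from 297 to 313 TPM in D + Q hearts (log2 fold change 0.24, SE 0.05, adjusted p 0.098), and Slc2a4 from 143 to 154 TPM and from 165 to 186 TPM (0.26, SE 0.06, adjusted p 0.109). Idh3a ranged from 171 to 202 TPM and from 216 to 230 TPM (0.27, SE 0.06, adjusted p 0.114). The largest estimates, chosen after their values were seen, were those of the PPAR targets Angptl4, a lipoprotein lipase inhibitor (0.89, SE 0.27, adjusted p 0.168), and Pdk4, a kinase that restrains glucose oxidation (0.70, SE 0.34, adjusted p 0.334), and both overlapped between groups.

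Markers of heart muscle cells had differences of similar size. The 5 cardiac muscle markers Myh6, Tnnt2, Tnni3, Nkx2-5 and Ryr2 all had positive estimates between 0.24 and 0.27, with 3 at an unadjusted p-value under 0.05, and their sum ranged from 12130 to 13290 TPM in vehicle and from 14850 to 15920 TPM in D + Q hearts. The 3 ventricular markers were also all positive, with a median of 0.27, while the 5 fibroblast markers were all negative, with a median of -0.40 and sums of 537 to 752 TPM against 429 to 502 TPM. All 5 atrial markers had negative estimates, 3 of them called lower (Myl7, Myl4 and Sln), with sums of 864 to 4260 TPM in vehicle and 382 to 427 TPM in D + Q hearts. When the mean log2 level of the 5 cardiac muscle markers was subtracted within each library, a comparison chosen after the data had been seen, the median difference of the 25 target genes went from 0.25 to -0.02, and for 0 of them did every D + Q heart exceed every vehicle heart. On that scale, 2 of the 10 regulators had every D + Q heart above every vehicle heart, and the share of all genes doing so is not given here. Ppargc1a was higher by 0.65 in the means (0.92 without the subtraction) and Perm1 by 0.20 (0.47 without it), and the median of the 10 genes was -0.04.

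**Figure D3:**
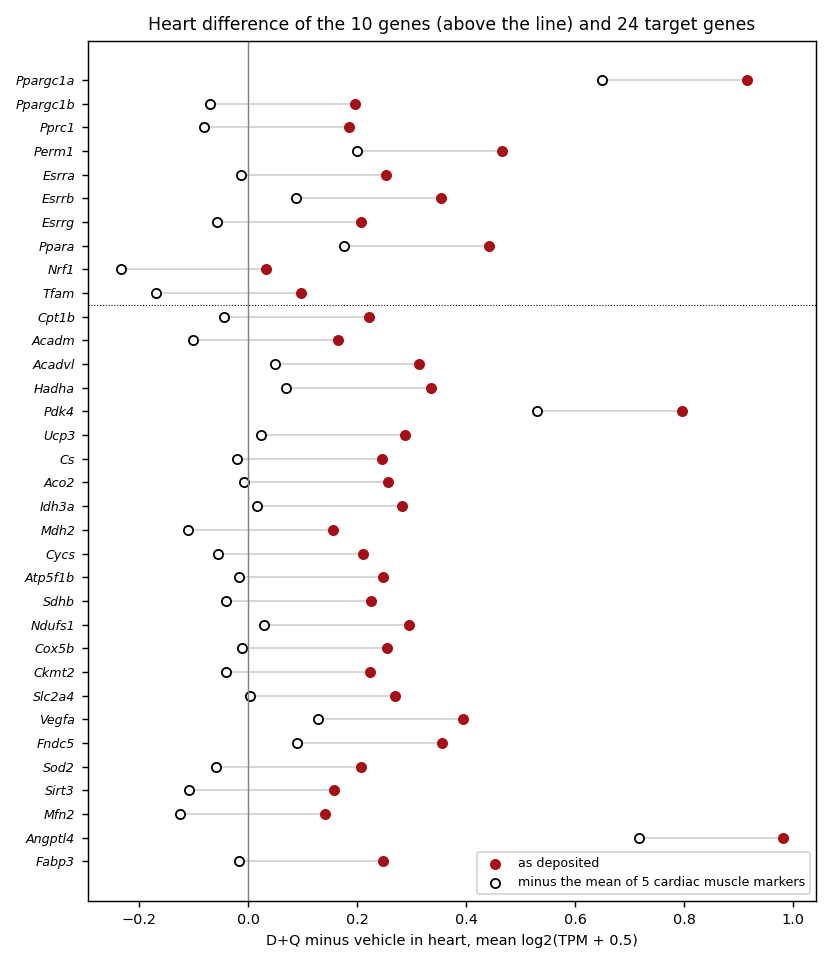
Difference of mean log2(TPM + 0.5) between D + Q and vehicle hearts (horizontal axis) for the 10 regulators (above the dotted line) and 24 of the 25 target genes, as deposited (filled) and after the mean of 5 cardiac muscle markers was subtracted in each library (open). The subtraction shifts every gene by the same amount, which brings the median target gene to -0.02, Ppargc1a to 0.65 and Perm1 to 0.20.

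Other genes of the pathway were counted in the same way in heart, where 9.65% of all genes were higher at an unadjusted p-value under 0.05. Of 15 further transcription factors that PGC-1 or the ERRs work with, 2 were higher at an unadjusted p-value under 0.05 and none was called (median log2 fold change 0.06). These were Rxrg, a retinoid receptor partner of PPARα (17.9 to 22.3 TPM against 23.15 to 26.8 TPM, log2 fold change 0.33, SE 0.09, adjusted p 0.147), and Thra, a thyroid hormone receptor (0.17, SE 0.07, adjusted p 0.268). The next smallest p-value belonged to Foxo3 (-0.18, SE 0.08, adjusted p 0.283). Of 17 upstream regulators and co-regulators, 3 were higher at an unadjusted p-value under 0.05 and none was called (median 0.05). Lpin1, a coactivator of PGC-1α and PPARα, ranged from 31.5 to 42.3 TPM in vehicle and from 43.4 to 49.5 TPM in D + Q hearts (0.40, SE 0.10, adjusted p 0.131), Prkaa2, a catalytic subunit of AMPK, gave 0.25 (SE 0.07, adjusted p 0.135), and Hdac5, a deacetylase that represses MEF2, gave 0.21 (SE 0.06, adjusted p 0.147). Of 14 genes of the mitochondrial genome machinery, Lrpprc, which stabilises mitochondrial mRNA, was the only one at an unadjusted p-value under 0.05 (0.20, SE 0.07, adjusted p 0.19), followed by the nuclease gene Mgme1 (0.23, SE 0.10, adjusted p 0.295) and the helicase gene Twnk (0.25, SE 0.11, adjusted p 0.32), with a median of 0.09.

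Unlike the genes above, some circadian clock genes, with which Ppargc1a and Ppara are known to be linked, were called in the same hearts. Among all 16132 genes, 17 were called higher and 34 lower. Of 15 clock genes, 1 was called higher, Bmal1, the core activator (1.35 to 3.15 TPM in vehicle and 8.55 to 10.2 TPM in D + Q hearts, log2 fold change 1.85, adjusted p 0.0284). Another 7 were called lower, Per2, Dbp, Nr1d2, Ciart, Hlf, Per3 and Tef, which are repressors or output factors of the clock, with log2 fold changes from -2.35 for Ciart to -0.75 for Nr1d2. Their part in the differences of Ppargc1a and its partners was not tested.

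In TA, no member was called, as was no other of the 16298 genes tested in limma (0%). At the same thresholds, the paper's count test in DESeq2 called genes both higher and lower in TA. The lack of calls in limma therefore does not show that treatment changed no gene. At an unadjusted p-value under 0.05, 0 of the 10 members passed, against 2.99% of all genes, and the adjusted p was 0.999 for each. The estimates were positive for 7 of 10 genes, with a median of 0.13, and the median over all genes was -0.07. In no member did the D + Q and vehicle muscles separate.

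The largest estimates in TA belonged to Ppargc1b and Ppargc1a, in opposite directions. Ppargc1b measured 13.99, 17.0, 7.16 and 12.3 TPM in vehicle muscles 1 to 4 and 8.10, 9.05, 7.42 and 7.48 TPM in D + Q muscles 1 to 4. The D + Q muscles were close together, and vehicle muscle 3 was below all of them while the other vehicle muscles were above (log2 fold change -0.50, SE 0.23, 95% confidence interval -1.01 to 0.02, unadjusted p in limma 0.056). The sum of 5 slow or oxidative fibre markers was 440, 716, 227 and 877 TPM in the same vehicle muscles and 389, 298, 200 and 269 TPM in the D + Q muscles, so that vehicle muscle 3 was again the lowest of its group, and the part of fibre type was not tested. Ppargc1a measured 23.3, 22.1, 19.1 and 40.7 TPM in vehicle and 42.5, 35.8, 26.7 and 23.9 TPM in D + Q muscles. The D + Q muscles were above vehicle muscles 1, 2 and 3, but vehicle muscle 4 was exceeded only by D + Q muscle 1 (log2 fold change 0.31, SE 0.26, 95% confidence interval -0.27 to 0.90). With 1 muscle left out, the estimate of Ppargc1b ranged from -0.82 (without vehicle muscle 3) to -0.26 (without D + Q muscle 3) and that of Ppargc1a from 0.11 (without vehicle muscle 3) to 0.51 (without vehicle muscle 4). All D + Q muscles were from males, and within the males alone the estimates were -0.31 for Ppargc1b and 0.56 for Ppargc1a, neither of them called.

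Pprc1 varied more between the muscles than any other member in its group SDs relative to the means. It measured 7.28, 10.4, 16.0 and 6.39 TPM in vehicle and 26.9, 10.5, 5.92 and 14.6 TPM in D + Q muscles. The muscles with the most Pprc1, D + Q 1, vehicle 3 and D + Q 4, were the 3 with the highest surrogate variable, and with that variable in the model the log2 fold change was 0.06 (SE 0.17). Perm1 measured 78.8, 55.2, 67.5 and 46.0 TPM in vehicle and 70.8, 98.2, 60.7 and 83.9 TPM in D + Q muscles, with a log2 fold change of 0.31 (SE 0.20). Its groups overlapped, and the lowest value was that of vehicle muscle 4.

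Esrra measured 30.9, 29.5, 24.9 and 13.8 TPM in vehicle and 27.3, 32.4, 25.9 and 30.3 TPM in D + Q muscles. Only vehicle muscle 4 stood apart, at the bottom, so the muscle with the most Ppargc1a of its group had the least Esrra and Perm1 (log2 fold change of Esrra 0.25, SE 0.24, and 0.04 without vehicle muscle 4). Esrrb, Esrrg and Ppara were low in TA, from 0.913 to 1.82 TPM, from 3.25 to 6.25 TPM and from 2.46 to 4.89 TPM over the 8 muscles, with log2 fold changes of -0.04 (SE 0.22), 0.06 (SE 0.23) and 0.23 (SE 0.22). Tfam measured 30.2, 26.9, 22.8 and 20.8 TPM in vehicle and 25.8, 27.9, 29.1 and 30.9 TPM in D + Q muscles (log2 fold change 0.20, SE 0.15), and Nrf1 ranged from 6.58 to 8.61 TPM in vehicle and from 6.21 to 8.73 TPM in D + Q muscles (-0.14, SE 0.15). For these 6 genes the groups overlapped.

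Of the 25 target genes in TA, 24 had positive estimates, but they were small, with a median of 0.07, and 1 passed an unadjusted p-value under 0.05, Pdk4 (271 to 435 TPM in vehicle and 393 to 694 TPM in D + Q muscles, log2 fold change 0.45, SE 0.18, adjusted p 0.999). The next smallest p-values were those of the uncoupling protein gene Ucp3 (0.57, SE 0.26) and the fatty acid carrier gene Fabp3 (0.27, SE 0.15). No gene passed an unadjusted p-value under 0.05 among the 15 partner factors, led by Rxrg (0.43, SE 0.21), Foxo1 (0.26, SE 0.27) and Mef2c (-0.16, SE 0.12), the 17 upstream regulators, led by Lpin1 (0.31, SE 0.15), the PGC-1 antagonist Nrip1 (0.31, SE 0.20) and Creb1 (-0.16, SE 0.14), or the 14 genes of the mitochondrial machinery, led by Tfb1m (-0.31, SE 0.20), Tfb2m (0.21, SE 0.14) and Polrmt (-0.23, SE 0.21). Among the 15 clock genes, Npas2 (-0.65, SE 0.23), Per1 (0.51, SE 0.19) and Nfil3 (0.61, SE 0.26) had the smallest p-values, and none was called.

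The effects in the 2 tissues were then compared with an interaction term. None of the 10 genes was called, against 0.0201% of 14914 genes. Ppargc1b had the largest difference, 0.67 on the log2 scale (SE 0.28, 95% confidence interval 0.07 to 1.27, unadjusted p in limma 0.0303, adjusted p 0.962), from an estimate of -0.50 in TA and 0.17 in heart. It ranged from 0.43 without TA D + Q muscle 3 to 0.99 without TA vehicle muscle 3. Ppargc1a differed by 0.57 (SE 0.35, 95% confidence interval -0.19 to 1.33) and Perm1 by 0.15 (SE 0.25, 95% confidence interval -0.38 to 0.69), so an effect in TA as large as that in heart lay within the intervals of both.

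The balance between Ppargc1a and Ppargc1b was also taken as a ratio within each library. This comparison was chosen with earlier results of these data known, and its p-values were not adjusted. In heart the TPM ratio was 2.20, 1.58, 2.09 and 1.67 in vehicle and 2.71, 3.81 and 2.84 in D + Q, without overlap. The mean log2 ratio, for which 0.5 TPM was added to both genes, was 0.88 ± 0.23 (SD, n = 4) in vehicle and 1.60 ± 0.27 (SD, n = 3) in D + Q hearts, a difference of 0.72 with an exact two-sided permutation p of 0.0286, the smallest that the 35 splits of these hearts allow. In TA the TPM ratio was 1.66, 1.304, 2.67 and 3.32 in vehicle and 5.25, 3.95, 3.60 and 3.19 in D + Q muscles, and vehicle muscle 4 lay just above D + Q muscle 4. The mean log2 ratio was 1.03 ± 0.60 (SD, n = 4) against 1.91 ± 0.30 (SD, n = 4), a difference of 0.88 with an exact two-sided permutation p of 0.0571, where 70 splits allow 0.0286. Of the summed TPM of the 3 coactivators, Ppargc1a made up 57.5% ± 3.94 (SD, n = 4) in vehicle and 69.0% ± 3.76 (SD, n = 3) in D + Q hearts, and the sum itself averaged 60.2 and 94.7 TPM.

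Between the tissues, vehicle heart was compared with vehicle TA, and 4 members were called, all higher in heart, where 36.7% of 17868 genes were called in either direction and 14.2% were called higher. Esrrb was higher by 1.81 on the log2 scale (SE 0.15, adjusted p 3.18e-07), Esrrg by 1.60 (SE 0.18, adjusted p 4.29e-06) and Ppara by 1.54 (SE 0.19, adjusted p 1.42e-05), and for these 3 genes every heart of either group was above every TA muscle. Ppargc1b was higher by 0.59 (SE 0.18, adjusted p 0.014), but by 0.37 without vehicle muscle 3 of TA, below the threshold on fold change. The median gene was lower in heart by the TPM scale (-0.16), whereas median-of-ratios scaling put it at 0.0081 and changed the split of all calls from 2532 higher and 4027 lower to 3331 higher and 2883 lower. The calls of the 4 members held under both scalings. Nrf1 was lower in heart by TPM (-0.44, SE 0.16, adjusted p 0.0427), under the threshold on fold change, and its adjusted p was 0.142 after median-of-ratios scaling. Perm1 (0.04, SE 0.16), Esrra (0.19, SE 0.21) and Ppargc1a (0.44, SE 0.22, adjusted p 0.121) were not called, nor were Pprc1 and Tfam, whose estimates were negative.

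In the treated groups, 5 members were called higher in heart than in TA, where 34.7% of all genes were called in either direction and 13.3% were called higher. They were Esrrb (2.10, SE 0.19), Esrrg (1.70, SE 0.22), Ppara (1.69, SE 0.23), Ppargc1b (1.16, SE 0.22) and Ppargc1a (0.84, SE 0.27, adjusted p 0.0224). The call of Ppargc1a was lost without TA D + Q muscle 4, without D + Q heart 2 or without D + Q heart 3, each left out alone, with an adjusted p of up to 0.134. Within the ERR family, Esrra made up 78.6% ± 8.88 (SD, n = 4) of the summed TPM in vehicle TA and 55.6% ± 3.23 (SD, n = 4) in vehicle heart, while Esrrg made up 16.4% ± 7.68 (SD, n = 4) and 31.1% ± 1.88 (SD, n = 4) and Esrrb 5.02% ± 1.31 (SD, n = 4) and 13.3% ± 1.41 (SD, n = 4). The D + Q groups had the same order, with Esrra at 82.4% ± 2.47 (SD, n = 4) in TA and 55.5% ± 3.06 (SD, n = 3) in heart.

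**Figure D4:**
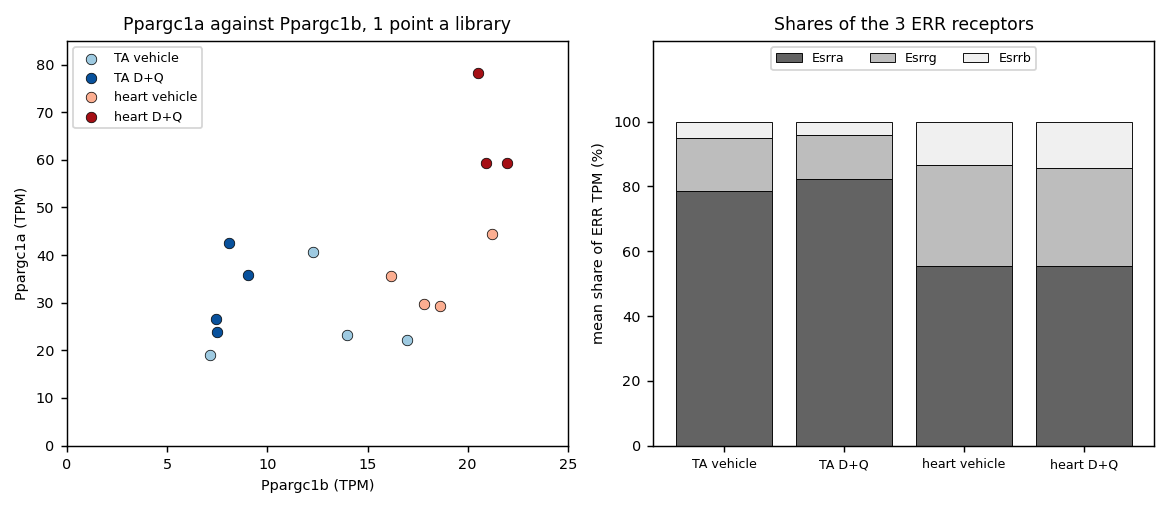
Left, Ppargc1a against Ppargc1b in TPM with 1 point per library, colored by group. Right, mean share (percent) of Esrra, Esrrg and Esrrb in the summed TPM of the ERR receptors in each group, where Esrra is at 78.6% in vehicle TA and 55.6% in vehicle heart.

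The genes whose profile over the 15 libraries was most like that of each member were found by the root mean square difference of centred log2 values among 14913 other genes. Perm1 was closest to the mitochondrial ribosomal gene Mrps18a (0.14) and to Ckmt2, mitochondrial creatine kinase (0.15), where the median gene lay at 0.45. Ppara was closest to Acaa2, an enzyme of fatty acid oxidation (0.20), and to the sarcomere gene Fhod3 (0.20), and Esrrg to Fhod3 (0.19) and Rgs7bp (0.19). Esrrb was closest to Nudt8 (0.11) and Meis1 (0.14), and for these 3 members the difference between tissues makes up much of the profile, the median gene lying at 0.97 to 1.09. Ppargc1a had the most distant neighbours of the 10 genes, Ammecr1 (0.31) and Nt5c2 (0.34), and Ppargc1b was closest to Prepl (0.16) and Sh3glb2 (0.17). Pprc1 was closest to Rhoj (0.17) and Sema6b (0.18), Esrra to Epn1 (0.11) and Gm10053 (0.11), Nrf1 to Calr (0.12) and Zfp236 (0.12), and Tfam to Nudt19 (0.12) and Pmvk (0.15).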

How the data were processed

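The authors trimmed reads with Trim Galore 0.6.10, quantified them with Salmon 1.10.3 against GRCm39, collapsed transcripts to genes in tximport and deposited 1 table of TPM for 56980 genes in 15 libraries; the annotation release is not given in the sources used here. TPM keeps no depth, so no counting error can be given and all errors come from the spread between samples. The authors' count test in DESeq2 was not run. With that test, the paper listed Ppargc1b among the genes lower in D + Q TA and Ppargc1a among the genes higher in D + Q heart, whereas limma on TPM called neither. The paper also checked selected TA genes by qPCR, and its primer list includes Ppargc1b. In both tissues its count test called more genes than limma did here.

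Genes reaching 0.5 TPM in 3 or more libraries of the comparison were fitted on log2(TPM + 0.5) in R 4.3.3 with limma 3.58.1 (lmFit, eBayes with trend), with 1 surrogate variable in TA, estimated in 5 re-weighted rounds, labelled sex in heart and between tissues, and both terms, each within its tissue, in the interaction. p-values were adjusted over all genes by the Benjamini-Hochberg method. Groups were taken from the labels, which list each library as a separate sample. The code was tested on simulated data. The 10 members, all gene lists and the ratio of Ppargc1a to Ppargc1b were chosen with earlier results of these data known. Text names all members, every listed or marker gene called in a treatment comparison and otherwise the 3 of each list with the smallest p-value there. For 1 target gene, counted in its list, values are not reported here. Of the identifiers, 56236 were found in GENCODE M39, and promoters are the 250 bases before the canonical start, without those of chromosome 18. No 2 libraries were identical, and correlations within groups ranged from 0.949 to 0.982. Alternatives were other pseudocounts, filters, scalings, covariates, a replicate block and leaving out each library in turn; levels relative to cardiac muscle markers and all alternatives for the target genes were chosen after seeing the data.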

Additional observations from a re-analysis of the deposited data

How the results depend on the processing

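No member was called in TA, in heart or in the interaction under any alternative tried, except that 2 were called in heart without vehicle heart 3 (0 to 2 over the hearts left out in turn). The other pseudocounts and filters, median-of-ratios scaling and limma without the trend kept the direction and side of the threshold of every member, apart from Esrrb in TA. The estimate of Esrrb in TA turned from -0.04 to 0.0171 with median-of-ratios scaling, and to 0.0896 both with labelled sex as the covariate and within males alone. Nrf1 in heart turned to 0.0320 without a covariate, and the interaction of Pprc1 turned from 0.11 to -0.22 without covariates. The cause was not tested.

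Replicate numbers are shared between groups, and no pairing by number was seen. Same-numbered libraries deviated from their group means with a mean correlation of -0.12 in TA (4 pairs) and 0.0035 in heart (3 pairs). In neither tissue did a library correlate best with its own number (0 libraries). So few pairs could not reveal a weak pairing. With the replicate block, members called stayed at 0 in TA, heart and the interaction, at 4 between vehicle groups and at 5 between D + Q groups, and the interaction of Pprc1 turned to -0.27.

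Leaving out each library in turn moved the following estimates across 0. In TA these were Pprc1 (-0.0258 to 0.18), Esrrb (-0.18 to 0.27) and Esrrg (-0.13 to 0.45), and in heart Nrf1 (-0.29 to 0.0376) and Tfam (-0.13 to 0.34). In the interaction they were Pprc1 (-0.0065 to 0.20), Perm1 (-0.0327 to 0.32), Esrra (-0.19 to 0.20), Esrrg (-0.26 to 0.32), Nrf1 (-0.15 to 0.17) and Tfam (-0.33 to 0.14), and between vehicle groups Perm1 (-0.0764 to 0.15) and Esrra (-0.0823 to 0.33). The number of members higher in heart at an unadjusted p-value under 0.05 ranged from 3 to 7, and was 3 with sex as expressed. Over all genes that number ranged from 933 to 1669, and was 804 with sex as expressed. The number of members without overlap in heart ranged from 5 to 8, and was 2 relative to the cardiac muscle markers, where that of the target genes was 0 instead of 19. The matching shares of all genes without overlap are not given here. The difference in the ratio of Ppargc1a to Ppargc1b ranged from 0.57 to 0.81 in heart, where groups reduced by 1 cannot reach an exact permutation p under 0.05, and in TA from 0.66 to 1.095, the latter without vehicle muscle 4 (exact permutation p 0.0286).

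Left without a depth, the table does not say how precisely low genes such as Esrrb in TA were counted. The calls between tissues that depended on 1 library beyond those already given were Ppargc1a in the vehicle groups, called without TA vehicle 4 (0.64), and Nrf1, called lower without TA vehicle 4 (-0.56), heart vehicle 2 (-0.53) or heart vehicle 3 (-0.52). In the D + Q groups, Nrf1 was called lower without TA D + Q 3 (-0.55) or TA vehicle 4 (-0.54), and Tfam without heart D + Q 1 (-0.62).

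Over all genes, the 17 higher and 34 lower calls in heart became 0 without a filter on low TPM, 2 and 11 without the trend, 0 and 4 with the replicate block, 3 and 22 with sex as expressed, and 0 to 64 and 0 to 72 with each heart left out in turn (0 without vehicle heart 2, 64 and 72 without vehicle heart 3). The 1 higher and 2 lower calls of the interaction became 2 and 7 with median-of-ratios scaling, 2 and 3 without covariates, 1 and 4 with a pseudocount of 1 TPM and 0 with the replicate block.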

Other observations

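Target genes of the network differed between the tissues in both directions. Of the 25, 8 were called higher and 4 lower in vehicle heart than in vehicle TA. Of all 17868 genes, 2532 were called higher and 4027 lower, 36.7% in either direction. The genes named here were chosen after their values were seen. Those of fatty acid use were higher in heart, with log2 fold changes of 3.05 for Fabp3, 1.61 for Acadm, 1.58 for Hadha, 1.02 for Acadvl and 0.74 for Cpt1b. Fndc5 (1.64) and Sod2 (0.64) were also higher. The 4 lower genes were Ucp3 (-1.92), Pdk4 (-0.95), Idh3a (-0.67) and the glucose transporter gene Slc2a4 (-0.66). Among the upstream regulators, 8 of 17 were called lower in heart and 0 higher, where 4027 of all 17868 genes were called lower. The lowest of them was Prkag3, the AMPK subunit known from fast skeletal muscle (-4.20), and among the partner factors Mef2c was lowest (-3.31). With median-of-ratios scaling the calls over all genes became 3331 higher and 2883 lower, and the calls of these lists under it are not given here. Age and length of treatment differed together with tissue in these comparisons.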
